A study of Mus musculus with 14 samples.

Results

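The genes described here encode tumour necrosis factor (TNF), the death receptors of its family and the proteins that carry their signal towards apoptosis or necroptosis. The 10 members, chosen by symbol, were Tnf, Fas, Tnfrsf1a, Tnfrsf1b, Tnfrsf10b, Casp8, Cflar, Ripk1, Ripk3 and Mlkl, out of 17656 genes, and each was found once in all 14 libraries. RNA-seq was done on mouse liver, 1 library per 8-week-old C57BL/6 mouse. The mice were wild type (WT) or labelled as Ythdf1 knockouts (KO), a whole-body line made by CRISPR/Cas9 deletion of part of Ythdf1, whose product binds N6-methyladenosine in RNA. The 4 groups were WT saline (n = 3), KO saline (n = 3), WT ConA (n = 4) and KO ConA (n = 4). Concanavalin A (ConA), a plant lectin that activates T cells and causes immune hepatitis, was injected into the tail vein at 8 mg/kg, and livers were taken 8 h later.

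TNF binds the death receptor TNFR1 (Tnfrsf1a) and TNFR2 (Tnfrsf1b), which has no death domain. Fas and the TRAIL receptor DR5 (Tnfrsf10b) are the other death receptors of the list. Caspase-8 (Casp8) starts apoptosis downstream of the death receptors, and c-FLIP (Cflar) restrains it. Where caspase-8 is held back, the kinases RIPK1 and RIPK3 can activate MLKL, which breaches the plasma membrane in necroptosis. In the liver, hepatocytes are known for their sensitivity to Fas and for low levels of RIPK3, and TNF is a known mediator of ConA hepatitis.

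Levels are given as TPM, the share of a library's transcripts that a gene takes, corrected for length, and the sequencing depth is unknown. Differences were tested by limma on log2(TPM + 1) over all tested genes, and a gene is called where the p adjusted by the Benjamini-Hochberg method was under 0.05. Adding 1 TPM understates the fold change of low genes. Ythdf1 itself was listed at 12.03 to 13.9 TPM (WT saline), 18.4 to 20.8 (KO saline), 18.7 to 25.6 (WT ConA) and 15.5 to 26.2 (KO ConA), and it was higher in the libraries labelled KO saline than in WT saline (log2 difference 0.53, limma adjusted p = 0.0181). The targeting scheme of the study draws 1 internal exon as removed. A TPM over the whole gene does not show single exons, so this level does not check the genotype. Why Ythdf1 was listed higher in KO saline was not tested. WT saline replicates 2 and 3 were closer to each other than any other pair (median absolute log2 ratio 0.0793, against 0.128 for the next pair). WT ConA replicate 3 was the lowest library of its group for 57.6% of 11327 genes, and KO ConA replicate 3 for 60.8%. Defining hepatocyte markers were present in every library, with a summed level of 108118 to 136780 TPM after saline and 54867 to 82762 TPM after ConA. Alb made up most of this sum (62303 to 87030 and 30310 to 56543). Hnf4a (136 to 164 and 141 to 239) and Apob (192 to 346 and 177 to 323) overlapped between saline and ConA libraries. Leukocyte markers moved with ConA too. The summed neutrophil list (9 genes) was at 5.44 to 11.8 TPM after saline, with Ngp at 0 in every KO saline library, and after ConA at 328 to 580 (WT) and 428 to 987 (KO). S100a8 (134 to 452) and S100a9 (156 to 442) made up most of it after ConA. Ly6g did not rise, at 0.57 to 5.04 TPM after saline and 0.18 to 2.47 after ConA. The monocyte list (5 genes) was at 130 to 224 TPM after saline and 286 to 586 after ConA, but Fn1, which hepatocytes also express, made up most of it (128 to 223 and 271 to 543), while Ccr2 was at most 0.46 and 1.09. The Kupffer cell list (10 genes) was at 65.1 to 230 and 19.8 to 93.8, and the T and NK cell list (10 genes in the files) at 1.71 to 4.54 and 6.15 to 22.2. Within the latter list Gzmb was at 0.05 to 0.61 TPM after saline and 2.88 to 11.07 after ConA. Cd3e (0.16 to 0.39 and 0.17 to 0.60) and Cd4 (0.05 to 0.27 and 0 to 0.21) overlapped. The B cell list (5 genes) was at 0.43 to 3.69 TPM after saline and 0.80 to 4.13 after ConA. The endothelial list (7 genes) spanned 15.2 to 45.4 and 14.6 to 48.1. The stellate cell list (7 genes) was at 16.2 to 66.4 TPM in WT saline and 60.3 to 105 in KO saline, and at 21.8 to 63.1 and 51.4 to 102 in the ConA groups. The part of these shifts in the results was not tested, and in whole liver fewer cells of a type and less RNA per cell cannot be told apart.

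Cflar and Casp8 are neighbours on mouse chromosome 1 (GRCm38.p6, RefSeq), at 58711311 to 58758884 and 58795233 to 58847503 on the plus strand, 36348 bases apart. Tnf lies on chromosome 17 at 35199367 to 35202007 on the minus strand, 1157 bases from Lta and 3061 bases from Ltb, 2 other ligands of the family. Fas lies on chromosome 19 (34290647 to 34327775), Ripk1 on chromosome 13 (34002225 to 34035170) and Mlkl on chromosome 8 (111311255 to 111338479). Ripk1 overlaps Serpinb6a on the opposite strand and Ripk3 overlaps the noncoding gene Gm32092. The strand used in counting was not stated, so reads of such partners may not have been told apart. Between 88.3% and 100% of the 50-base stretches of each member's transcript occurred in no other gene.

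RefSeq promoter windows of 300 bases around a start site were found for 9 of the 10 members, with a pair of windows for Ripk1. They were searched on both strands for 3 motifs of factors that respond to cytokines. The GAS element, TTCNNNGAA, to which STAT dimers bind, was in the windows of 4 members (Fas, Tnfrsf1a, Tnfrsf1b and Ripk1) and in 8.30% of 32851 promoters. The ISRE core, GAAANNGAA, a letter pattern of interferon-responsive promoters, was in those of Tnfrsf1b, Cflar, Ripk1 and Ripk3 and in 8.56% of all. The NF-kB consensus was in none of the 9 members' windows and in 4.51% of all, which says only that its letters are not within these windows. The windows below are those of Fas and Tnfrsf1b, receptors that rose after ConA, of Ripk1, the member called between genotypes in saline livers, and of Mlkl, which had the largest difference after ConA. They are written 5′ to 3′ on the strand of the gene, with motif matches in capitals.
Fas (chr19:34290409-34290708, plus strand): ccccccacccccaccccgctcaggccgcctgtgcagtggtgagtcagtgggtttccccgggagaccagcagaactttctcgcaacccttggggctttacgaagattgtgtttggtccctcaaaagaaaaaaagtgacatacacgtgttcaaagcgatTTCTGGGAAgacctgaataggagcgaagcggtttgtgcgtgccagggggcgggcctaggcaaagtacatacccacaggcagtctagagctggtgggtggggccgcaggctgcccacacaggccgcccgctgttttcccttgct
Tnfrsf1b (chr4:145246821-145247120, minus strand): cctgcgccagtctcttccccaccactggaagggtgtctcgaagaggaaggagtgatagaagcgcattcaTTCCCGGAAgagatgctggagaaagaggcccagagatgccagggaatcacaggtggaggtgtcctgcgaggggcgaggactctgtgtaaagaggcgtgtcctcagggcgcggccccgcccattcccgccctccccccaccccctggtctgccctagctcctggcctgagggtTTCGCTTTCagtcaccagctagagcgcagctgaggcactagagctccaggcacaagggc
Ripk1 (chr13:34002624-34002923, plus strand): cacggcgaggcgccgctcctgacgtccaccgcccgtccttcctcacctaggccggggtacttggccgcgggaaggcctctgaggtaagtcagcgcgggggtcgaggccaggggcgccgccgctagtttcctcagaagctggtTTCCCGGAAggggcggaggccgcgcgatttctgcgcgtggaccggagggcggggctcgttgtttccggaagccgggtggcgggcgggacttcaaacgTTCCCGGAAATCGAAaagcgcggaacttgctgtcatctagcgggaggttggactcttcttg
Mlkl (chr8:111338156-111338455, minus strand): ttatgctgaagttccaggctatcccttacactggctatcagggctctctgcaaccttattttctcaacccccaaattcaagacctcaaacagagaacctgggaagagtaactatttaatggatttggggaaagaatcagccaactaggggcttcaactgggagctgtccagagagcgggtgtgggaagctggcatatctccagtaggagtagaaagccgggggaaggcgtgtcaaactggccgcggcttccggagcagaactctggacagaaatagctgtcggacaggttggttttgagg
The Fas window holds 1 GAS match starting 93 bases before the start site. In Tnfrsf1b a GAS match lies 181 bases and an ISRE core, on the opposite strand, 9 bases before it. The Ripk1 window holds GAS matches 108 and 11 bases before the start site, and the second of these overlaps an ISRE core that starts 5 bases before it. The other Ripk1 window (chr13:34002113-34002412), not printed, holds none of the 3 motifs. The Mlkl window holds none of the 3 motifs. This window and the printed Ripk1 window lie inside the gene spans given above, so bases upstream of the Mlkl span were not searched. A match is a description of letters, and none of these data measured binding.

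In saline livers Tnfrsf1a was the highest member in both genotypes, at 51.2 ± 1.44 TPM (SD, n = 3) in WT and 41.9 ± 5.11 (n = 3) in KO. Casp8, Cflar and Fas followed at 19.5, 17.9 and 16.1 TPM on average in WT saline, and each overlapped its neighbour in that order. Ripk1 (8.99), Tnfrsf1b (5.72) and Mlkl (3.30) came next, and their ranges did not overlap. Ripk3 (0.547) and Tnfrsf10b (0.537) overlapped, and Tnf was listed at 0.05 TPM in 1 WT saline library and at 0 in the other two. After ConA the order changed at the top. Tnfrsf1a (118 in WT, 132 in KO) was followed by Fas (70.5 and 77.0) and then by Mlkl (33.9 and 45.4), which passed Cflar, Casp8, Tnfrsf1b and Ripk1, although in WT its range (23.5 to 46.3) overlapped those of Cflar and Tnfrsf1b (14.2 to 26.2). Ripk3 was the lowest member in both ConA groups, at 0.910 and 1.27 TPM. The summed level of the 10 members was 98.0 to 127 TPM in saline libraries and 255 to 376 TPM in ConA libraries.

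**Figure D1:**
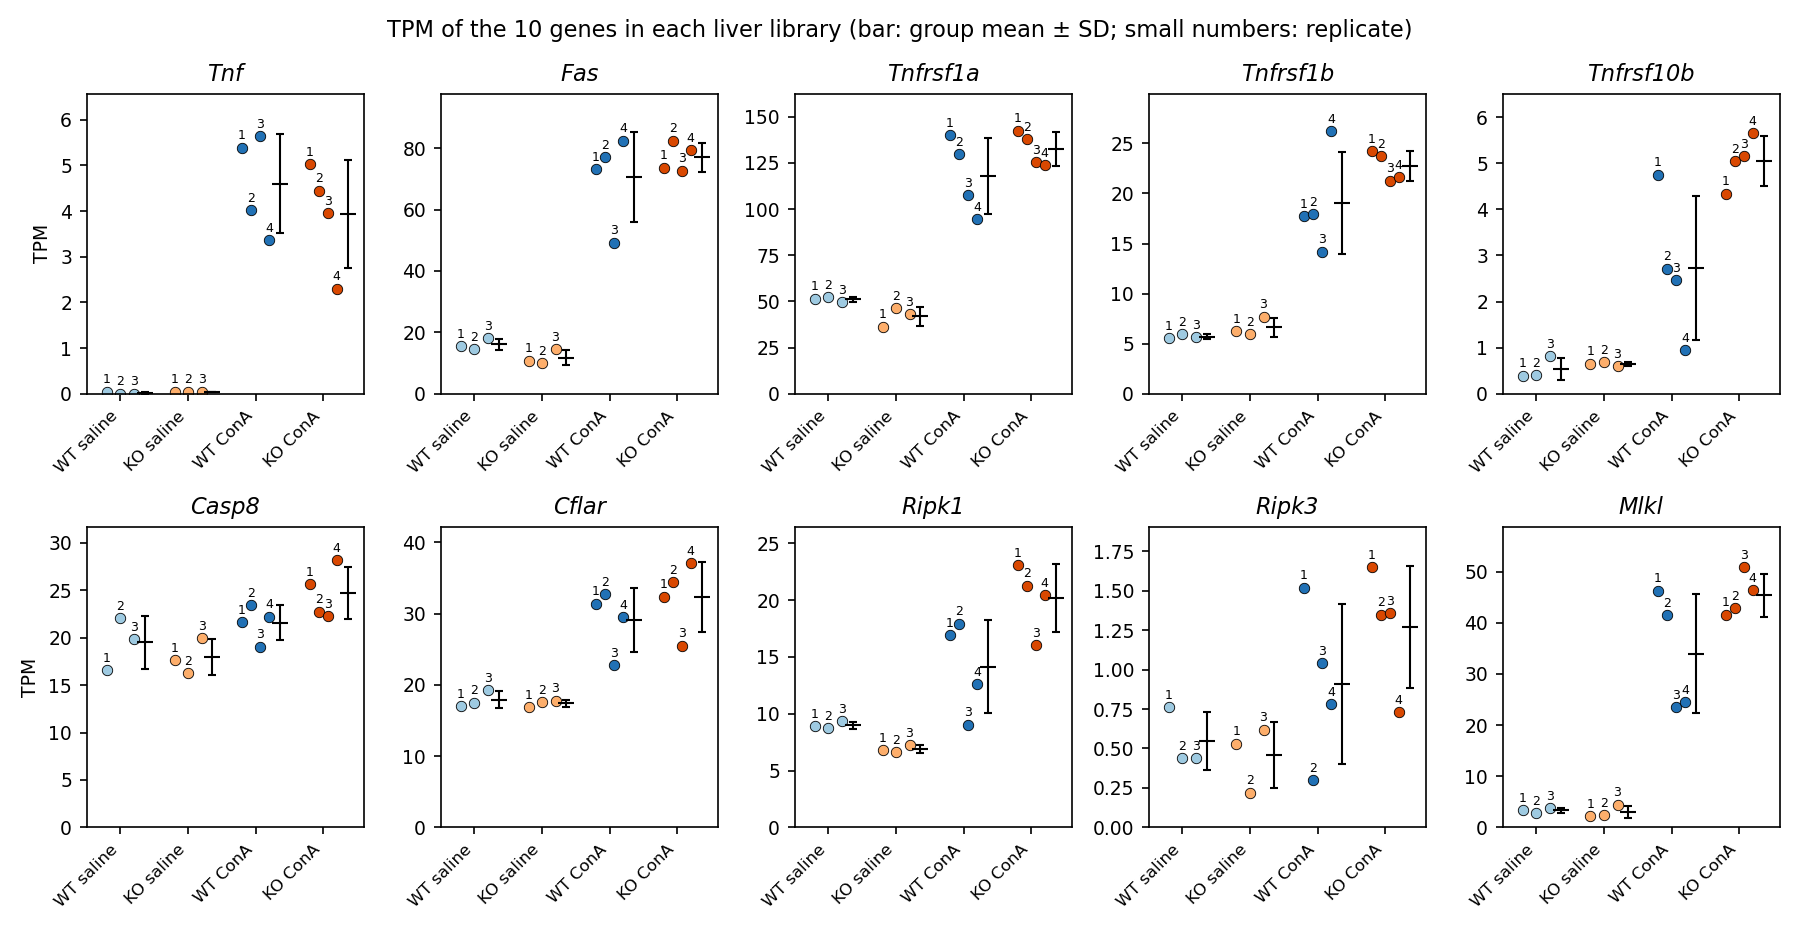
TPM of each of the 10 members (1 panel each, linear axis from 0) in the 14 liver libraries, with 1 point per library, small replicate numbers and a bar for the group mean ± SD (n = 3 saline, n = 4 ConA). The ConA libraries of both genotypes lie above the saline libraries for Tnf, Fas, Tnfrsf1a, Tnfrsf1b, Tnfrsf10b, Cflar and Mlkl, and WT ConA replicate 3 is the lowest WT ConA library for 6 members.

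The first comparison asked how these genes differed after ConA within each genotype. In WT livers 7 of the 9 tested members were called, all of them higher, where 22% of 10768 tested genes were called higher and 53% in either direction. In KO livers all 10 members were called higher, where 33.9% of 10988 tested genes were called higher and 64.6% in either direction. The median difference over the tested members was 1.19 on the log2 scale in WT (−0.07 over all tested genes) and 1.64 in KO (0.07 over all tested genes). Tnf and Tnfrsf10b reached the filter of 1 TPM only through their ConA libraries, and Ripk3 reached it only in KO, so these counts cover genes that had to be high in 1 group to be tested.

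Tnf, the ligand that gives the family its name, was near 0 without ConA. It was listed at 0.05, 0 and 0 TPM in WT saline and at 0.05 in each KO saline library. After ConA it was at 5.39, 4.02, 5.64 and 3.37 TPM in WT and 5.03, 4.45, 3.96 and 2.30 in KO. The ConA and saline libraries did not overlap in either genotype, and the WT and KO ConA ranges overlapped. Since WT saline holds libraries at 0, no fold is given. On the log2(TPM + 1) scale the difference was 2.44 ± 0.17 (SE, limma adjusted p = 5.76e-06) in WT and 2.20 ± 0.20 (adjusted p = 4.50e-06) in KO.

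All 4 receptors rose in both genotypes. Fas, the receptor of Fas ligand, was at 15.5, 14.6 and 18.1 TPM in WT saline and 73.2, 77.1, 49.2 and 82.4 in WT ConA. In KO it went from 10.7, 10.04 and 14.6 TPM to 73.6, 82.4, 72.7 and 79.4. The ratio of group means was 4.38 in WT and 6.53 in KO, and the log2 differences were 2.04 ± 0.19 (SE, limma adjusted p = 2.46e-05) and 2.62 ± 0.14 (adjusted p = 1.01e-07). WT ConA replicate 3 was the low library, still well above every saline library.

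Tnfrsf1a, the TNF receptor with a death domain, rose from 51.5, 52.4 and 49.6 TPM to 140, 130, 108 and 94.6 in WT. In KO it rose from 36.3, 46.4 and 43.0 TPM to 142, 138, 125 and 124. The ratios of means were 2.31 and 3.16, with log2 differences of 1.17 ± 0.15 (SE, limma adjusted p = 0.000198) and 1.64 ± 0.12 (adjusted p = 8.94e-07). It stayed the most abundant member in all 4 groups.

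Tnfrsf1b, the TNF receptor without a death domain that leukocytes carry, was at 5.52, 5.96 and 5.67 TPM in WT saline and 17.8, 17.9, 14.2 and 26.2 in WT ConA. The KO values were 6.25, 5.98 and 7.71 TPM and 24.3, 23.7, 21.3 and 21.7. The 4 KO ConA libraries lay within a narrow range, while the WT ConA libraries spread from below to above them. The log2 difference was 1.54 ± 0.19 (SE, limma adjusted p = 0.000159) in WT and 1.64 ± 0.14 (adjusted p = 2.44e-06) in KO. The summed neutrophil list, though not its gene Ly6g, was higher in the ConA groups of both genotypes, and its part in this result was not tested.

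Tnfrsf10b, the only mouse TRAIL receptor with a death domain, was under 1 TPM in every saline library (0.39 to 0.82). It reached 4.75, 2.71, 2.47 and 0.95 TPM in WT ConA and 4.34, 5.05, 5.15 and 5.65 in KO ConA. WT ConA replicate 4 was only slightly above the saline libraries, and the KO ConA libraries lay close together. The log2 difference was 1.19 ± 0.31 (SE, limma adjusted p = 0.0104) in WT and 1.88 ± 0.15 (adjusted p = 1.32e-06) in KO.

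At the apoptotic step the inhibitor gene was called in both genotypes and the protease gene in KO. Cflar, which encodes c-FLIP, was at 17.0, 17.5 and 19.3 TPM in WT saline and 31.4, 32.8, 22.7 and 29.5 in WT ConA. In KO it was at 16.8, 17.6 and 17.8 TPM and at 32.4, 34.4, 25.5 and 37.1. Replicate 3 was the lowest library in both ConA groups. The log2 differences were 0.66 ± 0.15 (SE, limma adjusted p = 0.00542) and 0.85 ± 0.14 (adjusted p = 0.000391).

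Casp8 was at 16.6, 22.1 and 19.9 TPM in WT saline and 21.6, 23.4, 19.1 and 22.2 in WT ConA, and these groups overlapped. In WT the log2 difference of 0.14 (95% interval −0.18 to 0.47, limma adjusted p = 0.423) did not pass the test. In KO it was at 17.6, 16.3 and 19.96 TPM after saline and 25.7, 22.8, 22.3 and 28.2 after ConA, without overlap. That difference of 0.44 ± 0.14 (SE, limma adjusted p = 0.0153) was called, but not without KO saline replicate 2 (0.38, adjusted p = 0.0778) or without KO ConA replicate 4 (0.38, adjusted p = 0.0530). The responses of the genotypes did not differ by the test of their difference (0.30 on the log2 scale, 95% interval −0.10 to 0.70, adjusted p = 0.329).

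The 3 genes of the necroptosis core had very different levels. Ripk1, the kinase recruited to TNFR1, was at 8.90, 8.74 and 9.33 TPM in WT saline and 16.9, 17.9, 9.04 and 12.6 in WT ConA. WT ConA replicate 3 lay within the saline range and the other libraries above it, and the difference of 0.56 (95% interval 0.06 to 1.05, limma adjusted p = 0.0570) was not called. It was called in 3 of 14 alternatives, without WT ConA replicate 3 (0.74, adjusted p = 0.00217), with rescaled libraries (0.65, adjusted p = 0.00675) and with all 14 libraries in the fit (0.56, adjusted p = 0.0217). In KO, Ripk1 was at 6.81, 6.61 and 7.25 TPM after saline and 23.1, 21.3, 16.1 and 20.4 after ConA. Every KO ConA library exceeded every KO saline library, with a ratio of means of 2.93 and a log2 difference of 1.42 ± 0.15 (SE, limma adjusted p = 1.35e-05).

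Ripk3, the kinase that phosphorylates MLKL, was low in all groups. It was at 0.76, 0.44 and 0.44 TPM in WT saline, 0.53, 0.22 and 0.62 in KO saline, 1.52, 0.30, 1.04 and 0.78 in WT ConA and 1.65, 1.35, 1.36 and 0.73 in KO ConA. The WT groups overlapped, with WT ConA replicate 2 below every WT saline library, and the gene was under the filter in that comparison. Tested without a filter, the WT difference was 0.27 (95% interval −0.22 to 0.76, limma adjusted p = 0.368). The KO groups did not overlap, and the difference of 0.63 ± 0.18 (SE, adjusted p = 0.00933) was called. It was called in 8 of the 9 alternatives in which it could be tested, the exception being without KO saline replicate 2 (0.51, adjusted p = 0.0509). It was under the filter without KO ConA replicate 1, 2 or 3 and with the filter at 5 TPM.

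Mlkl, the effector of necroptosis, had the largest difference of the members. It was at 3.29, 2.8 and 3.8 TPM in WT saline and at 46.3, 41.5, 23.5 and 24.4 in WT ConA. In KO it was at 2.19, 2.32 and 4.40 TPM and at 41.6, 42.8, 51.0 and 46.4. The WT ConA libraries fell into a higher and a lower pair, and the 4 KO ConA libraries all lay above the lower library of the higher pair. The ratios of means were 10.3 in WT and 15.3 in KO, and the log2 differences 2.97 ± 0.25 (SE, limma adjusted p = 1.60e-05) and 3.59 ± 0.19 (adjusted p = 9.47e-08).

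**Figure D2:**
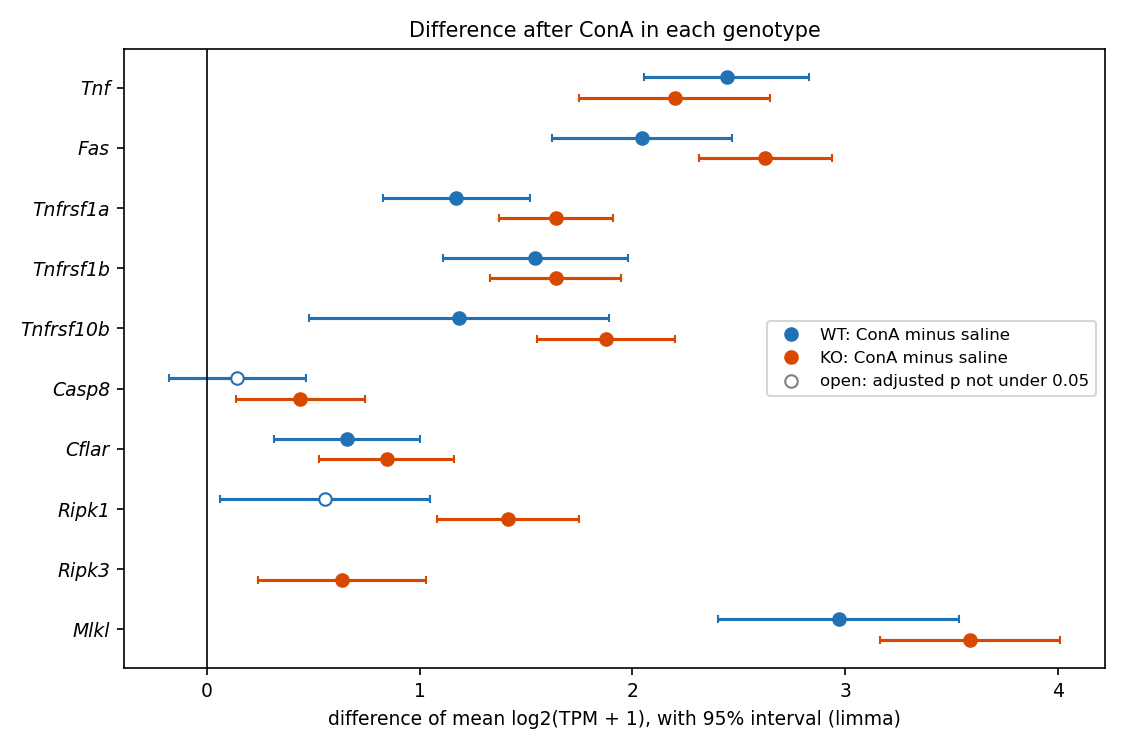
Difference of mean log2(TPM + 1) between ConA and saline livers for each member, with 95% intervals from limma, in WT (blue, n = 4 against 3) and KO (orange, n = 4 against 3). Filled points were called at an adjusted p under 0.05. Mlkl lies farthest right at 2.97 and 3.59, Casp8 and Ripk1 are open in WT, and Ripk3 has no WT point because it was under the filter.

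The next comparison asked whether the genotypes differed under ConA. None of the 10 members was called by limma between KO ConA and WT ConA, where 0.428% of 10519 tested genes were called, and none had groups that did not overlap, against 10.5% of all tested genes. At an unadjusted p under 0.05 there were 2 members and 1753 genes. These were Tnfrsf10b, at 5.05 ± 0.540 TPM in KO and 2.72 ± 1.56 in WT (SD, n = 4 each; log2 difference 0.80, 95% interval 0.19 to 1.41, limma adjusted p = 0.190), and Ripk1, at 20.2 ± 2.99 and 14.1 ± 4.11 TPM (0.52, interval 0.05 to 0.99, adjusted p = 0.252). Mlkl differed by 0.47 (interval −0.01 to 0.95, adjusted p = 0.313) and Tnf by −0.20 (interval −0.69 to 0.29, adjusted p = 0.711). The mean was higher in KO for 9 of the 10 members, and the median of the members was 0.23 against 0.05 over all tested genes. The share of all tested genes with a higher mean in KO is not given. Of those called, 36 were higher in KO and 9 lower.

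In saline livers 7 members could be tested, and 1 was called, where 19.2% of 10459 genes were called. Ripk1 was lower in KO saline by the values given above, at 6.89 ± 0.327 TPM against 8.99 ± 0.305 (SD, n = 3 each), a log2 difference of −0.34 ± 0.08 (SE, limma adjusted p = 0.0303). With the close pair of WT saline libraries averaged and counted as 1, it was −0.34 and not called (adjusted p = 0.118). Groups did not overlap for 4 of the 7 members, against 42.3% of all tested genes. Fas (−0.43, adjusted p = 0.0775) and Tnfrsf1a (−0.29, adjusted p = 0.0867) were also below WT in every library, Fas narrowly (at most 14.59 TPM against at least 14.6), and Tnfrsf1b (0.18, adjusted p = 0.241) was narrowly above it (at least 5.98 against at most 5.96). Over all tested genes the median difference in this contrast was −0.10, and with libraries rescaled to remove it Ripk1 was no longer called. The Kupffer cell list was at 137 to 230 TPM in WT saline and 65.1 to 147 in KO saline, which overlap. The endothelial list (15.2 to 25.4 and 26.4 to 45.4), the monocyte list (185 to 224 and 130 to 181) and the T and NK cell list (1.71 to 3.12 and 3.51 to 4.54) did not overlap. The part of these shifts in the saline differences was not tested.

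The test of whether ConA changed a gene more in one genotype than in the other called none of the 10 members, where 4.78% of 11327 genes were called. Ripk1 had the smallest p of the 10 (difference of responses 0.86, 95% interval 0.29 to 1.44, limma adjusted p = 0.0741). It was called in 3 of the 20 alternatives, namely with rescaled libraries (0.71, adjusted p = 0.0425), without WT ConA replicate 2 (0.98, adjusted p = 0.0439) and without KO ConA replicate 3 (0.96, adjusted p = 0.0463). Fas (0.58, adjusted p = 0.149) and Tnfrsf1a (0.47, adjusted p = 0.145) were the other members at an unadjusted p under 0.05. Of the 11327 genes, 2862 were under that threshold. These comparisons share their control libraries, so a low saline mean in KO enters both the saline contrast and the response.

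**Figure D3:**
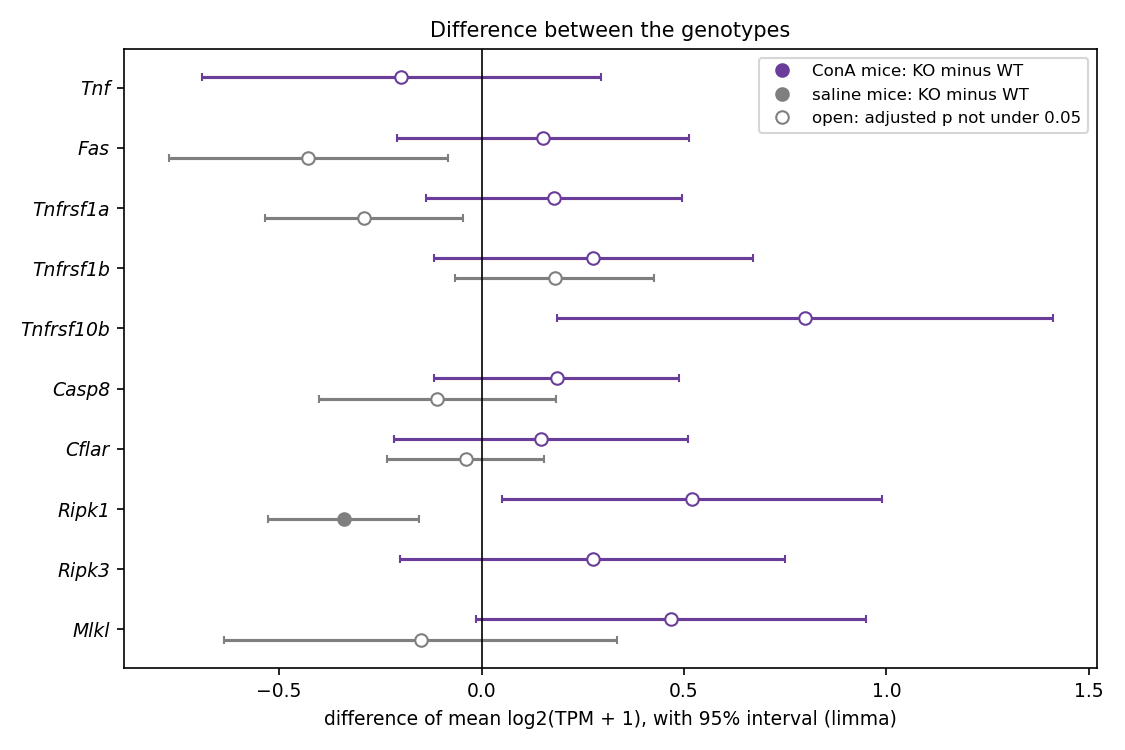
Difference of mean log2(TPM + 1) between KO and WT for each member, with 95% intervals from limma, in ConA livers (purple, n = 4 each) and saline livers (grey, n = 3 each). Ripk1 in saline livers (−0.34) is the only filled, called point, and its ConA point (0.52) lies on the other side of 0. Members with no grey point were under the filter in saline livers.

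Ratios of a pair of genes within a library do not depend on how the library was scaled, and they are given as a description. Cflar stood near Casp8 after saline, with ratios of 0.792 to 1.03 in WT and 0.890 to 1.08 in KO. After ConA it was above Casp8 in every library, with ratios of 1.19 to 1.45 in WT and 1.14 to 1.51 in KO. The ConA and saline ranges of this ratio did not overlap, and the genotypes did. Mlkl over Ripk3 was 4.33 to 8.64 in WT saline and 4.13 to 10.5 in KO saline, and after ConA it was 22.6 to 138 (WT) and 25.2 to 63.5 (KO). The ratio of Ripk3 to Ripk1 had group means (geometric) between 0.0571 and 0.0609 in all 4 groups, with library values from 0.0167 to 0.115. Tnfrsf1b over Tnfrsf1a was 0.107 to 0.114 in WT saline, below the other 3 groups, whose libraries lay between 0.127 and 0.277.

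**Figure D4:**
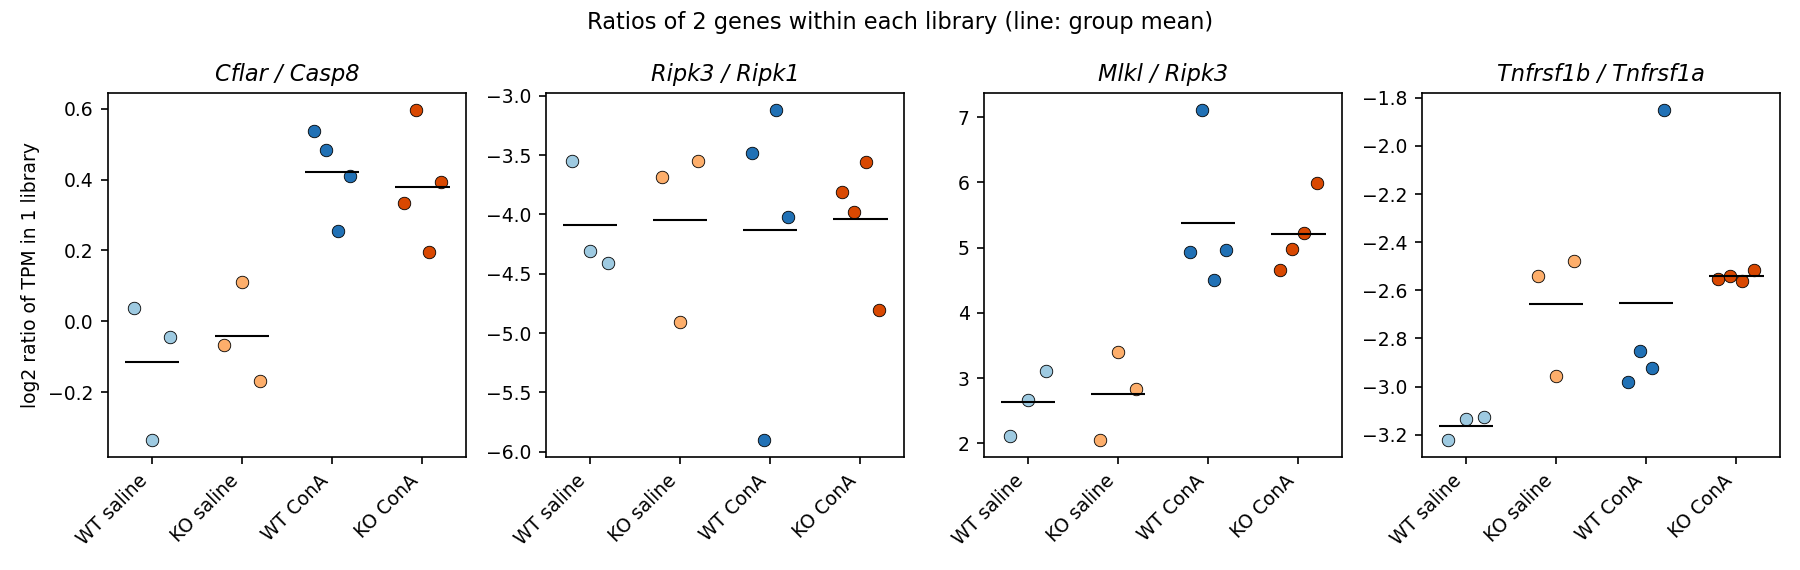
Log2 ratios of TPM of a pair of members within each library (1 point per library, line for the group mean), each panel with its own axis. The Cflar to Casp8 and Mlkl to Ripk3 ratios lie higher in all 8 ConA libraries than in all 6 saline libraries, while Ripk3 to Ripk1 does not separate the groups.

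The rest of the pathway was followed in a list of 58 other genes by role. In WT, 24 of the 51 tested genes were called after ConA, 20 higher and 4 lower. Of all tested genes 53% were called there and 22% called higher. In KO 38 of 52 were called, 33 higher and 5 lower, against 64.6% of all called and 33.9% called higher. The counts by role below are to be read against these shares. The median difference of the tested genes was 0.43 in WT and 0.73 in KO. Called in both genotypes were 22 genes, all in the same direction, which is 91.7% of the WT list and 57.9% of the KO list. The same share over all tested genes is not given, so this overlap is only a description. Under 1 TPM in every saline library were 6 of the tested genes in WT (Ltb, Tnfsf14, Tnfrsf22, Tnfrsf23, Tnfaip3 and Apaf1) and 6 in KO (Tnfsf10, Tnfrsf22, Tnfrsf23, Traf1, Tnfaip3 and Apaf1). They passed the filter only through their ConA libraries, so these counts and medians include genes that had to be high after ConA.

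Among the ligands Fasl, which encodes the ligand of Fas and was looked up after its values were seen, was under 1 TPM in every library, with ranges of 0 to 0.13 (WT saline), 0.04 to 0.08 (KO saline), 0 to 0.08 (WT ConA) and 0.13 to 0.22 (KO ConA). Ltb, a lymphotoxin subunit and neighbour of Tnf, was at 0.23 to 0.62 TPM in WT saline and 2.92 to 5.83 in WT ConA, and it rose by 2.04 in WT (limma adjusted p = 4.93e-05) and 1.81 in KO (adjusted p = 2.05e-05) on the log2 scale. Tnfsf14 (LIGHT) was called in WT (1.05, adjusted p = 0.000392). In KO it was under the filter and not tested, at 0 to 0.17 TPM after saline and 0.97 to 1.05 after ConA. Tnfsf10, which encodes TRAIL, the ligand of the Tnfrsf10b product, was at 1.1 to 5.59 TPM in WT ConA and was not called there (0.57, adjusted p = 0.236), and in KO its difference was 0.71 (adjusted p = 0.00342).

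Of 9 other TNF family receptors, 3 of the 6 tested were called higher in WT and 6 of the 7 tested in KO. Of all tested genes 22% and 33.9% were called higher. Both counts include Tnfrsf22 and Tnfrsf23, which passed the filter only through their ConA libraries. Tnfrsf12a, the receptor of TWEAK, was at 11.4 to 11.6 TPM in WT saline and 54.3 to 101 in WT ConA, a log2 difference of 2.58 (limma adjusted p = 7.55e-06). In KO it went from 8.65 to 13.9 TPM up to 117 to 200 TPM, a difference of 3.77 (adjusted p = 9.56e-08). Tnfrsf23, a decoy TRAIL receptor, rose by 3.53 in both genotypes (adjusted p = 3.90e-06 and 2.56e-08), and Tnfrsf22 by 0.92 and 1.20. Tnfrsf22 and Tnfrsf23 share 50-base stretches, with 72.3% and 70.1% of theirs found in no other gene, so their split is uncertain. Of the TNF shedding genes, Rhbdf2, which brings the protease ADAM17 to the cell surface, rose by 2.34 (adjusted p = 3.08e-06) in WT and 2.45 (adjusted p = 1.40e-07) in KO, its paralog Rhbdf1 by 0.84 and 0.96, and Adam17 itself was called in KO (0.99, adjusted p = 0.00183) but not in WT (0.43, adjusted p = 0.148). In WT it was called with rescaled libraries (0.51, adjusted p = 0.0254) and without WT ConA replicate 3 (0.65, adjusted p = 0.00122), and the difference of the responses was not called (adjusted p = 0.294).

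Of 15 adaptors and kinases of the receptor complex, 5 were called higher and 1 lower among the 14 tested in WT, and 8 higher and 1 lower among 15 in KO. Ikbke, an IKK-related kinase, was at 3.21 to 5.10 TPM in WT saline and 62.4 to 75.5 in WT ConA, and its log2 difference was 3.86 in WT (limma adjusted p = 3.71e-07) and 2.92 in KO (adjusted p = 3.25e-08). Its relative Tbk1 rose by 1.34 and 1.79, and the adaptor Traf2 by 1.23 and 1.08. Among 11 ubiquitin ligases and deubiquitinases, 5 in WT and 7 in KO were called higher, and 1 was called lower in KO, Sharpin (−0.55, adjusted p = 0.00336). Tnfaip3, which encodes the NF-kB inhibitor A20, went from 0.52 to 0.58 TPM up to 12.7 to 28.9 TPM in WT (3.94, adjusted p = 4.22e-06), and its difference was 4.67 in KO (adjusted p = 3.89e-09). Its partner Tnip1 rose by 1.32 and 2.28. Rnf31, the catalytic subunit of the linear ubiquitin ligase, rose by 1.28 and 1.27.

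Of 8 caspases and mitochondrial genes, 1 was called higher and 2 lower in WT, and 4 higher and 1 lower in KO. Apaf1, the scaffold of the apoptosome, rose by 2.21 in WT (limma adjusted p = 4.04e-05) and 3.09 in KO (adjusted p = 1.41e-07). Casp9, the protease that Apaf1 activates, fell by 1.28 in WT (adjusted p = 0.000260) and fell by 0.65 in KO (adjusted p = 0.0122), and the executioner Casp6 fell by 0.97 in WT (adjusted p = 0.000675) and differed by −0.30 in KO, which was not called (adjusted p = 0.121). Of 5 partners of necroptosis, Zbp1, a nucleic acid sensor that can engage RIPK3, was at 7.19 to 9.02 TPM in WT saline and 133 to 181 in WT ConA. It rose by 4.12 (adjusted p = 2.95e-07) in WT and 4.32 (adjusted p = 3.94e-08) in KO. Ticam1, the adaptor of Tlr3, was called higher in both genotypes (adjusted p = 0.00148 and 0.000153), and the phosphatase gene Ppm1b fell by 1.18 in WT (adjusted p = 0.000758) and by 0.92 in KO (adjusted p = 0.00171).

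**Figure D5:**
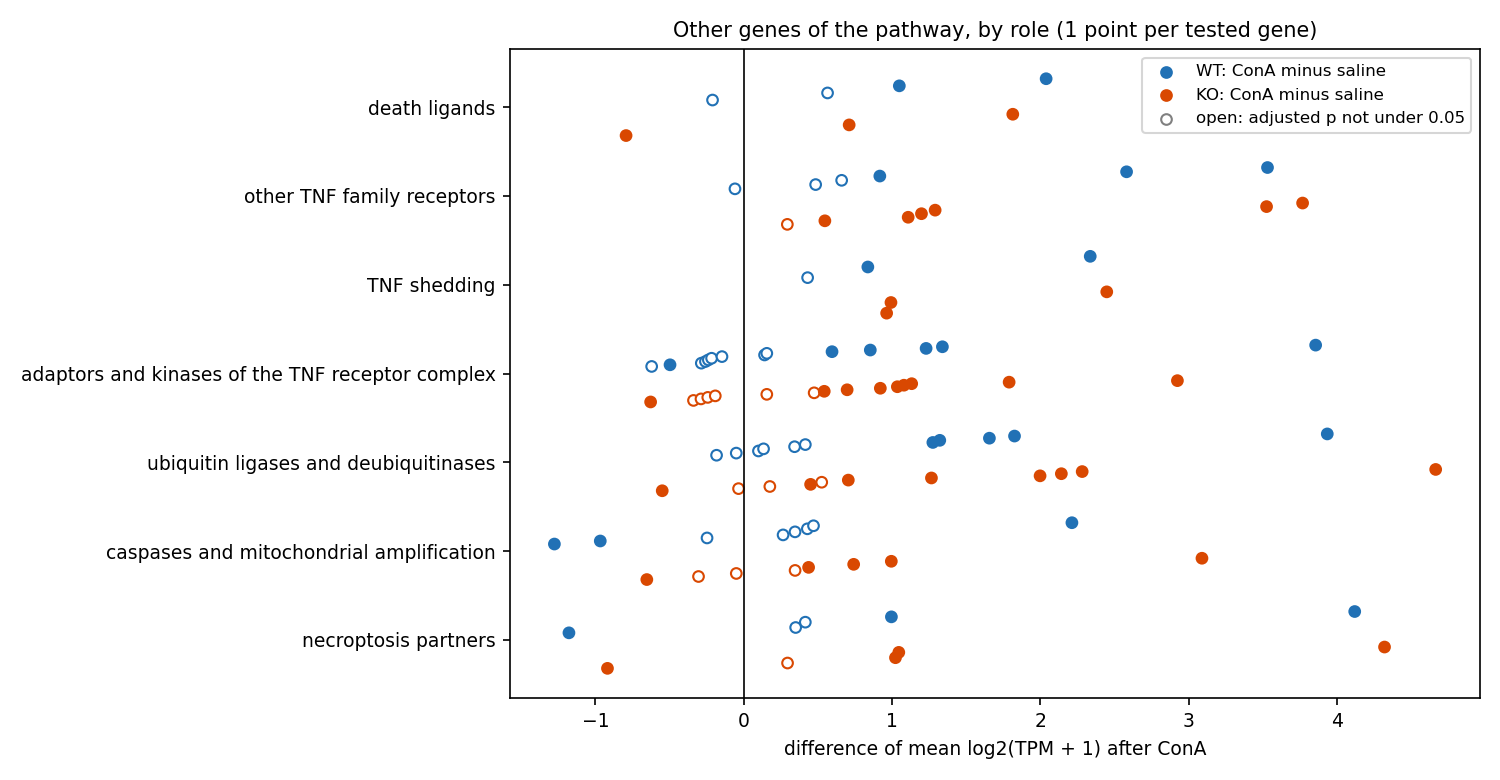
Difference of mean log2(TPM + 1) after ConA for each tested gene of 7 role lists (1 point per gene), in WT (blue) and KO (orange). Filled points were called by limma at an adjusted p under 0.05. Each role has points above 0, the highest being Tnfaip3 at 3.94 and 4.67 and Zbp1 at 4.12 and 4.32, and points below 0 include Casp9 at −1.28 and −0.65 and Ppm1b at −1.18 and −0.92.

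Between KO ConA and WT ConA none of the 53 tested genes of the list was called by limma (0.428% of all tested genes were), and 2 were called with the replicate block and 4 with all 14 libraries in the fit. Those 4 were Tnfrsf12a (1.12, adjusted p = 0.0534 in the 2-group fit and 0.00805 with all libraries), Tnfrsf21 (0.97, adjusted p = 0.114 and 0.0449), Apaf1 (0.94, adjusted p = 0.0741 and 0.0107) and Sharpin (−0.75, adjusted p = 0.0718 and 0.00930). Tnfrsf21 encodes the death receptor DR6, and Sharpin a subunit of the linear ubiquitin ligase. Tnfrsf12a did not overlap between the groups, at 117 to 200 TPM in KO against 54.3 to 101 in WT. Sharpin was at 18.6 to 24.8 TPM in KO and 29.6 to 50.2 in WT. Tnfrsf11b, the decoy receptor osteoprotegerin, did not overlap either, at 1.29 to 2.85 TPM in KO against 0.05 to 1.23 in WT (0.81, adjusted p = 0.141). Its KO libraries alone sufficed for the filter of 1 TPM. Tnfrsf21, Apaf1, Tnfsf12 (lower in KO) and, narrowly, Tnfaip3 (at least 28.9 TPM in KO against at most 28.86 in WT) did not overlap either. Of all tested genes, 10.5% did not overlap. Others named by the same rule were Tnfaip3 at 0.57 (adjusted p = 0.251), Tnfsf12 at −0.33 (0.325), Ikbke at −0.35 (0.209), Ikbkb at 0.37 (0.470), Traf1 at 0.42 (0.249) and Tlr3 at 0.45 (0.482). The rule also named Tnfsf14, Ltb, Rhbdf1, Rhbdf2, Adam17, Tnip1, Casp6, Zbp1 and Ticam1, none of them called between the ConA groups. In saline livers 9 of 45 were called (19.2% of all tested genes), 1 higher and 8 lower in KO. None was called with WT saline replicates 2 and 3 averaged, or without either of them.

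The genes whose profile over the 14 libraries was nearest to each member, by the root mean square difference of centred log2(TPM + 1), were searched among 11317 genes. Nearest to Mlkl were Tap1 (0.240), Mxd1 (0.266) and Iigp1 (0.281), and nearest to Fas were Stat3 (0.173), Usp18 (0.177) and Fgb (0.193). Nearest to Tnf were Lbp (0.231), Lrrc59 (0.231) and Nfkbie (0.232). Tnfrsf1a lay nearest to Rnf185 (0.144), Tnfrsf1b to Srsf3 (0.162), Tnfrsf10b to Ddias (0.146), Casp8 to Abcf1 (0.0889), Cflar to Ttc37 (0.0853), Ripk1 to Ppp2r2a (0.0952) and Ripk3 to Csf2ra (0.136). Among the members themselves the closest pair was Cflar and Ripk1 (0.241), followed by Casp8 and Cflar (0.262), and the farthest was Casp8 and Mlkl (1.51). All these profiles share the same 14 libraries and the large shift between saline and ConA, so the distances are a description.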

How the data were processed

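RNA-seq was done on 14 mouse livers as single-end reads of 50 bases. The authors deposited 1 table of TPM per library, over the same 17656 genes. The submitters' notes list Bowtie2, RSEM 1.3.1 and the build GRCm38.p6, while the study's methods name STAR and HTSeq. The annotation and the strand setting are not given in the sources used here. TPM keeps no depth, so no counting error could be given. Groups came from the sample labels.

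Differences were tested with limma 3.58.1 (R 4.3.3, empirical Bayes with a trend) on log2(TPM + 1), with 2 groups per fit and all 14 libraries for the difference of responses. A gene entered a test if it reached 1 TPM in at least n libraries, n being the size of the smaller group (3 for the difference of responses), and p was adjusted by the Benjamini-Hochberg method over all tested genes (10459 to 11327). A gene was called under 0.05. The procedure was tested on simulated data. Each library was 1 mouse, so p-values measure the spread between mice. Replicate numbers were not taken as pairs.

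The 10 members and the lists of other pathway genes and markers were chosen with earlier results of these data known. Named were all members and, per role list, up to 3 genes with the smallest adjusted p in WT ConA against WT saline and up to 3 in KO ConA against WT ConA, and the 3 genes with the nearest profile to each member. A gene that this rule would name is counted in its list but not reported here. The alternatives tried were rescaled libraries, a filter set at 5 TPM or left out, 0.1 as pseudocount, all 14 libraries in the fit, WT saline replicates 2 and 3 averaged, a replicate block, and leaving out each library. Of the identifiers, 17604 matched RefSeq. Promoter windows are from RefSeq (GRCm38.p6), searched with Python 3.11.15.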

Additional observations from a re-analysis of the deposited data

Results flagged for a closer look

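No member had a library that stood apart from its ConA group by Dixon's criterion for a group of 4. Over 38 genes of this pathway, 76 ConA groups were checked and 6 held such a library, where chance gives about 1 in 20. All were in KO ConA. Replicate 1 was the highest for Tnfsf14 (1.05 TPM, others 0.97 to 0.98) and the lowest for Tnfrsf22 (1.91 TPM, others 2.23 to 2.28) and Tnfaip3 (28.9 TPM, others 35.3 to 36.7). Replicate 2 was the highest for Ikbke (64.0 TPM, others 51.0 to 51.7). Replicate 3 was the lowest for Ppm1b (20.2 TPM, others 35.2 to 37.2) and Tlr3 (2.18 TPM, others 4.73 to 5.24).

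The response to ConA differed between KO and WT in 4 of the 53 tested genes around the members, where 4.78% of all tested genes were called, by limma's test of the difference on log2(TPM + 1). It was larger in KO for Tnfrsf12a (1.19, adjusted p = 0.0395) and Tnip1 (0.96, adjusted p = 0.0429). It was smaller in KO for Ikbke (−0.93, adjusted p = 0.0280). Tnip1 was also called lower in KO saline (3.67 to 4.51 TPM) than in WT saline (5.64 to 7.41). Ikbke was called higher there (5.71 to 6.68 TPM against 3.21 to 5.10). These saline differences enter the responses, and neither gene was called between the ConA groups. Sharpin differed by −0.89 (adjusted p = 0.0358), at 28.1 to 29.7 TPM in WT saline, 29.6 to 50.2 in WT ConA, 31.3 to 33.1 in KO saline and 18.6 to 24.8 in KO ConA. With WT saline replicates 2 and 3 averaged, none of the 4 was called.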

How the results depend on the processing

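The calls of members after ConA kept their direction in every alternative run. The number called was 5 to 8 in WT (7 as reported) and 8 to 10 in KO (10 as reported), the lowest of each under a filter at 5 TPM, which tests fewer genes, and in KO also without KO saline replicate 2 (8). Over all comparisons and alternatives, 646 values of single members kept their direction and side of the threshold, 8 gained and 12 lost a call, and 6 changed sign. Those that changed sign were small. Between KO and WT ConA, leaving out each library gave −0.00987 to 0.234 for Fas. Between the saline groups, rescaled libraries gave 0.00195 for Casp8 and 0.0720 for Cflar, and leaving out each library gave −0.0743 to 0.0117 for Cflar. For the difference of responses of Tnfrsf1b, rescaling gave −0.0517 and leaving out each library −0.0273 to 0.253. Of the other pathway genes named, Ltb changed sign between KO and WT ConA, at −0.0408 to 0.247 without each library.

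In saline livers the number of members called (1) was 0 with no filter, with rescaled libraries, with all 14 libraries and with the close pair averaged, and 0 to 2 without each library. The other genes of the pathway (9) went to 3 with no filter, to 0 with all 14 libraries or the pair averaged, and 0 to 7 without each library. For the difference of responses the member count (0) was 1 with rescaled libraries and 0 to 1 without each library, each time Ripk1, and that of the other genes (4) was 2 with no filter or rescaled, 0 with the pair averaged and 0 to 5 without each library. Between KO and WT ConA, 4 other genes were called with all 14 libraries. The cause of these changes was not tested.

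Same-numbered libraries correlated from −0.189 to 0.405 in their deviations from the group means, with no comparison in which every pair was over 0.1, so they were not treated as pairs. Between KO and WT ConA 3 of the 4 pairs were over it (0.129, 0.405 and 0.115). With the replicate block 2 members were called in saline livers (Ripk1 and Fas), 9 after ConA in KO (Casp8 lost, adjusted p = 0.109) and 2 other genes between KO and WT ConA (Tnfrsf12a and Tnfrsf21). The ratios within a library moved by less than 1 SD with a pseudocount of 0.1. Depth is unknown, so for Tnf, Ripk3 and Tnfrsf10b near or under 1 TPM counting error could not be separated from differences between mice.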
